A study of Mus musculus with 8 samples.

Results

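The genes described here encode the antigen receptor of T cells and the coreceptors beside it: Cd3d, Cd3e, Cd3g, Cd247, Cd8a, Cd8b1, Trac, Trbc1, Trbc2 and Cd4. They were chosen by name. All 10 of these 10 genes were listed in both count tables, among 17642 genes in the CD8 T cell table and 18389 in the ILC2 table. The study cultured splenic CD8 T cells together with lung group 2 innate lymphoid cells (ILC2s) for 3 days at a ratio of 5:1. ILC2s are tissue lymphocytes that make type 2 cytokines and show no antigen receptor on their surface. Both populations were then sorted again and their RNA was sequenced in bulk. The title of the study asks whether ILC2s present antigen to CD8 T cells. Per the labels the groups were ILC2s co-cultured with CD8 T cells, ILC2s kept on their own, CD8 T cells co-cultured with ILC2s and CD8 T cells kept on their own, with 2 libraries each. All cells were primary cells of wild-type mice, and the cells kept on their own were untreated. The sources used here give no strain, age or sorting gate and do not say whether replicates came from separate animals or cultures. The p-values thus rest only on the spread between these libraries, taken largely over other genes, and this spread may be technical.

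The receptor that recognises antigen on most T cells is a pair of alpha and beta chains whose constant parts come from Trac and from either Trbc1 or Trbc2. It has no signalling tail of its own and depends on the CD3 gamma, delta and epsilon chains and on the zeta chain, the product of Cd247, whose tails are phosphorylated when antigen binds. CD8, a dimer of the products of Cd8a and Cd8b1, holds the receptor to MHC class I, and CD4 does the same for MHC class II on helper T cells.

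Library totals ran from 48072595 to 67076905 counts, and levels are given as CPM, counts scaled by the library total. ILC2 identity was present in the libraries labelled ILC2. The 24 genes listed as ILC2 markers, among them Gata3 and Il1rl1, summed to 12906 and 12718 CPM in those co-cultured. They summed to 5205 and 5225 CPM in those alone. Only 20 of these 24 genes were listed for CD8 T cells. Those 20 summed to 1353 and 1419 CPM in co-cultured CD8 T cells and 1002 in both CD8 libraries alone. Markers of other cells were also present in the ILC2 libraries labelled alone. Of the genes listed for each of these cells, a table holds only some: 8 of 10 stroma and epithelium genes were in the ILC2 table, 4 of 11 macrophage genes and 7 of 10 NK cell genes. The stroma and epithelium genes summed to 209 and 191 CPM in ILC2s co-cultured and to 4704 and 5040 CPM in ILC2s alone, macrophage genes to 16.2 and 19.9 CPM against 181 and 179 CPM, and NK cell genes, some of which CD8 T cells also transcribe, to 16.8 and 16.7 CPM against 325 and 311 CPM. In the co-cultured libraries Pecam1, which leukocytes also carry, made up most of the stroma and epithelium sum, with 168 and 152 CPM, against 84.9 and 77.8 CPM in ILC2s alone. Col1a2, a collagen gene of fibroblasts, had 0.516 and 0.354 CPM in co-cultured ILC2s, against 1320 and 1480 CPM in ILC2s alone. Listed genes with few reads in co-cultured ILC2s passed the filter on low counts through the libraries alone. No count of calls is thus given for stroma and epithelium, macrophage or NK cell genes between the ILC2 groups. Among all genes tested in ILC2s, 34.4% were called lower in co-cultured cells and 31.8% higher. Of 8 B cell genes 1 was called higher and 3 lower, near the share of all genes (summed level 79.5 and 80.0 CPM in co-cultured ILC2s, 104 and 98.3 CPM in ILC2s alone), and of 7 dendritic cell genes 1 higher and 3 lower (459 and 514 CPM, against 609 and 616 CPM). The most abundant listed genes over the ILC2 libraries were Il1rl1 for ILC2s, Col1a2 for stroma and epithelium, Lyz2 for macrophages, Klrk1 for NK cells, Cd79b for B cells and Irf8 for dendritic cells. Klrk1 had 160 and 135 CPM in ILC2s alone and 247 and 303 CPM in CD8 T cells alone. Klrd1 had 93.5 and 104 CPM, against 183 and 214 CPM. Between cells kept alone, 3 of 7 NK cell genes were called higher in ILC2s and 3 lower. Of all genes, 32.8% were called higher and 30.4% lower. The ILC2 libraries labelled alone thus held more T cell, stroma and macrophage transcripts than those labelled as co-cultured with T cells. The libraries labelled alone also held more transcripts of the NK cell list, part of which CD8 T cells transcribe too. A swap of labels, a difference in sorting and an effect of culture cannot be told apart from these files, and every comparison of the ILC2 groups below carries this limit. All group names are those of the labels.

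Trbc1 and Trbc2 lie 7064 bases apart on chromosome 6 and their reads cannot be fully separated. In the GENCODE M21 annotation of GRCm38, the first exons of both genes are 375 bases long and differ at 1 base, with 259 identical bases in a row, so that 99.7% of the bases agree. Around that base, with the differing base in capitals, the plus strand reads as follows for Trbc1 (chr6:41538447-41538507) and Trbc2 (chr6:41546959-41547019). Counted from the start of the exon, the difference from Trbc1 to Trbc2 is C260A. The sources used here do not say how the authors counted reads that match both genes, so each of their 2 values is uncertain.
Trbc1: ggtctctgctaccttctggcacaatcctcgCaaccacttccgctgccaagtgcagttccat
Trbc2: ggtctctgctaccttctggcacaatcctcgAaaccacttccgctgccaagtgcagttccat

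The genes for CD3 gamma, delta and epsilon are neighbours on chromosome 9, with 1337 bases between Cd3g and Cd3d, which are read in opposite directions, and 11682 bases between Cd3d and Cd3e. They are shown because their levels parted in the ILC2 libraries. The windows below are RefSeq sequences of GRCm38.p6 of 198 bases that begin 250 bases before the transcript start used in its promoter table, written in the direction of the gene: Cd3g at chr9:44980484-44980681 on the minus strand, Cd3d at chr9:44981536-44981733 on the plus strand and Cd3e at chr9:45009664-45009861 on the minus strand. Before the outermost start of the gene they run from 250 to 53 bases for Cd3g, from 233 to 36 bases for Cd3d and from 198 to 1 bases for Cd3e. Capitals mark matches, on either strand, to short motifs of factors of T cells and ILC2s. The GATA motif was searched with the letters AGATAA, then with the letters AGATAG, then with the letters TGATAA and then with the letters TGATAG. The TCF motif was searched with the letters CTTTGA and then with the letters CTTTGT, the Ets motif with the letters AGGAAG and then with the letters CGGAAG, and the Runx motif with the letters TGTGGT and then with the letters TGCGGT. No match of 1 motif overlapped a match of another in these windows.
Cd3g: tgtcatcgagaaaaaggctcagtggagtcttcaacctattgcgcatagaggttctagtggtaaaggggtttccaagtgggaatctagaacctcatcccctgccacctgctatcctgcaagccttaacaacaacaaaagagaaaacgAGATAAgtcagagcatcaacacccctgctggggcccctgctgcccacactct
Cd3d: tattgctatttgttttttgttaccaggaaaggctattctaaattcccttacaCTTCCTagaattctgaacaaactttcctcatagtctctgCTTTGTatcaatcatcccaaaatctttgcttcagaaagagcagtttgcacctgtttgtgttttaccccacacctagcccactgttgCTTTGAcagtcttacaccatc
Cd3e: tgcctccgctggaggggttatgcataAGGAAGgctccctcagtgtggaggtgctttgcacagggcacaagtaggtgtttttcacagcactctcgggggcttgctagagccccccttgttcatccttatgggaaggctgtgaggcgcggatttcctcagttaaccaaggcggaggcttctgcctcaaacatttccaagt

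The Cd3g window held 1 GATA match and no match of the other motifs. The Cd3d window held 2 TCF matches and 1 Ets match, and the Cd3e window held 1 Ets match. Among all 32851 promoter windows of the same length, 22.9% held a GATA match, 23.3% a TCF match, 30.8% an Ets match and 15.1% a Runx match. A match describes the letters only.

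In ILC2s, every receptor and coreceptor gene was lower in the libraries labelled co-cultured than in those labelled alone. The size of the difference was uneven, from 39.5 times for Cd8a to 2.26 times for Cd3g in mean CPM. All 10 genes passed the test downward (edgeR quasi-likelihood test, adjusted p under 0.05), where 34.4% of the 16739 genes tested in ILC2s were called lower, 31.8% higher and 66.3% in either direction. The median log2 change of the 10 genes was -2.84, against -0.01 over all genes tested. Fewer cells of a type and less RNA per cell cannot be told apart in such bulk samples, and the part of the macrophage, stroma and NK cell markers that fell alongside was not tested.

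**Figure D1:**
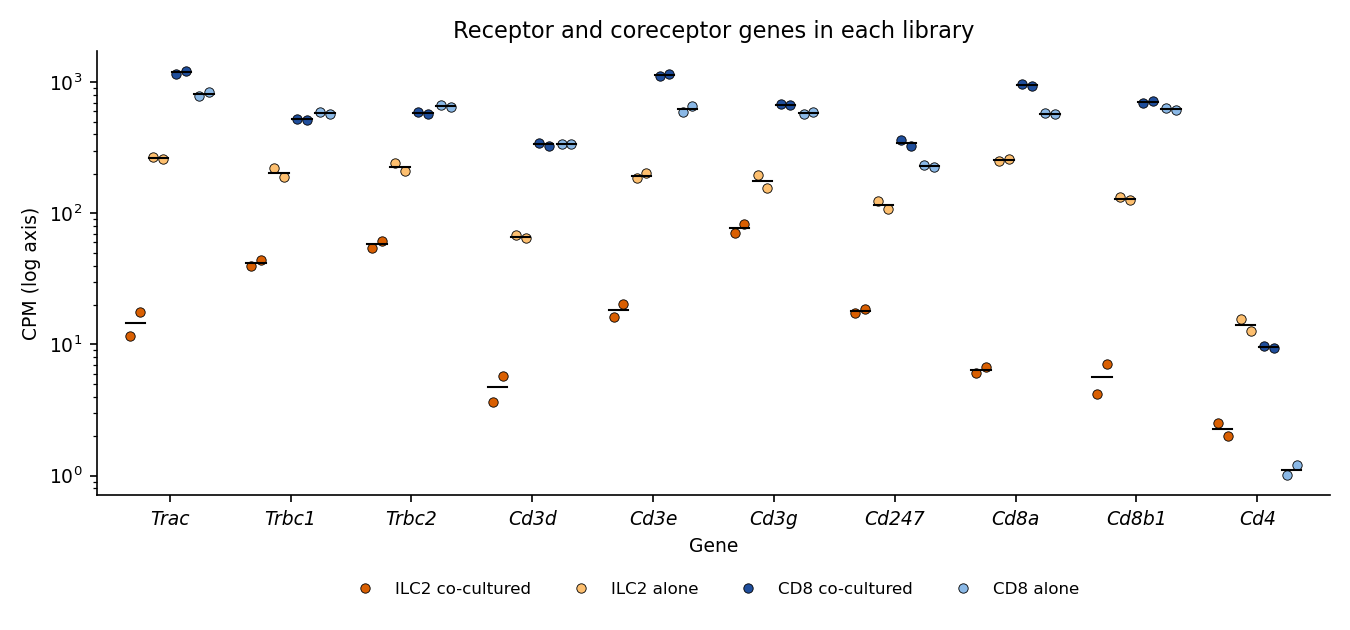
CPM of each receptor and coreceptor gene on a log axis in the 8 libraries. Each dot is a library, with replicate 1 left of replicate 2, and each bar the mean of 2 libraries. The co-cultured ILC2 libraries lie lowest for every gene except Cd4, for which the CD8 libraries alone do.

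Cd8a, the coreceptor chain found on all CD8 T cells, had 6.09 and 6.76 CPM in co-cultured ILC2s, against 249 and 258 CPM in ILC2s alone. Cd8b1, its partner chain, had 4.21 and 7.07 CPM in co-cultured ILC2s, against 132 and 125 CPM in ILC2s alone. No co-cultured library came near a library kept alone for either gene. Their log2 changes were -5.09 (SE 0.141, edgeR's adjusted p = 1.5e-10) and -4.31 (SE 0.198, edgeR's adjusted p = 7.1e-09).

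The receptor chains behaved unlike each other in ILC2s. Trac had 11.6 and 17.6 CPM in co-cultured ILC2s, against 270.3 and 262 CPM in ILC2s alone (log2 change -3.98, SE 0.175, edgeR's adjusted p = 4.7e-09). Trbc1 had 39.8 and 44.2 CPM in co-cultured ILC2s, against 220.6 and 188 CPM in ILC2s alone. The log2 change of Trbc1 was -2.07 (SE 0.129, edgeR's adjusted p = 8.3e-08). Trbc2 had 54.7 and 61.5 CPM in co-cultured ILC2s, against 241 and 209 CPM in ILC2s alone (log2 change -1.74, SE 0.125, edgeR's adjusted p = 2.7e-07). The groups did not overlap for any of these genes. Groups of 2 libraries also lay apart for most other genes examined here, in both cell types. Lack of overlap thus does not set genes apart, here or elsewhere in this report. The beta constant regions kept a larger part of their level than the alpha constant region did, a difference between genes that was not tested.

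Among the signalling chains, Cd3d and Cd3e fell far and Cd3g little. Cd3d had 3.65 and 5.78 CPM in co-cultured ILC2s, against 67.9 and 64.9 CPM in ILC2s alone (log2 change -3.61, SE 0.185, edgeR's adjusted p = 1.8e-08). Cd3e had 16.2 and 20.3 CPM in co-cultured ILC2s, against 185 and 202 CPM in ILC2s alone (log2 change -3.20, SE 0.142, edgeR's adjusted p = 5.0e-09). Cd3g, whose start lies beside that of Cd3d, had 71.3 and 83.6 CPM in co-cultured ILC2s, against 195 and 155 CPM in ILC2s alone. All of these groups were apart, but the log2 change of Cd3g was only -0.96 (SE 0.137, edgeR's adjusted p = 7.0e-05). Cd247, the zeta chain, which NK cells also use with their Fc receptor, had 17.5 and 18.6 CPM in co-cultured ILC2s, against 125 and 108 CPM in ILC2s alone (log2 change -2.48, SE 0.133, edgeR's adjusted p = 2.6e-08).

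Cd4 was low in all ILC2 libraries. It had 2.52 and 2.00 CPM (122 and 96 reads) in co-cultured ILC2s, against 15.8 and 12.6 CPM (958 and 698 reads) in ILC2s alone (log2 change -2.43, SE 0.208, edgeR's adjusted p = 1.2e-06). Beside it, Foxp3, the factor of regulatory T cells, had 0.475 and 1.10 CPM in co-cultured ILC2s, against 4.68 and 3.95 CPM in ILC2s alone, and Cd40lg, a ligand of activated helper T cells, had 0.08 and 0.19 CPM, against 3.36 and 2.40 CPM. Of the 7 genes listed for CD4 and regulatory T cells 5 rose and 2 fell, where 31.8% of all genes rose and 34.4% fell. Foxp3 and Cd40lg were those that fell, and Icos and Il2ra were among those that rose. Apart from Ctla4, the genes of this list that are named were picked for their roles after their values were seen. The list summed to 3484 and 3387 CPM in co-cultured ILC2s, against 1231 and 1214 CPM in ILC2s alone, and its most abundant gene there was Ctla4. Icos is also among the genes listed as ILC2 markers, so this sum is not one of T cell genes only.

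**Figure D2:**
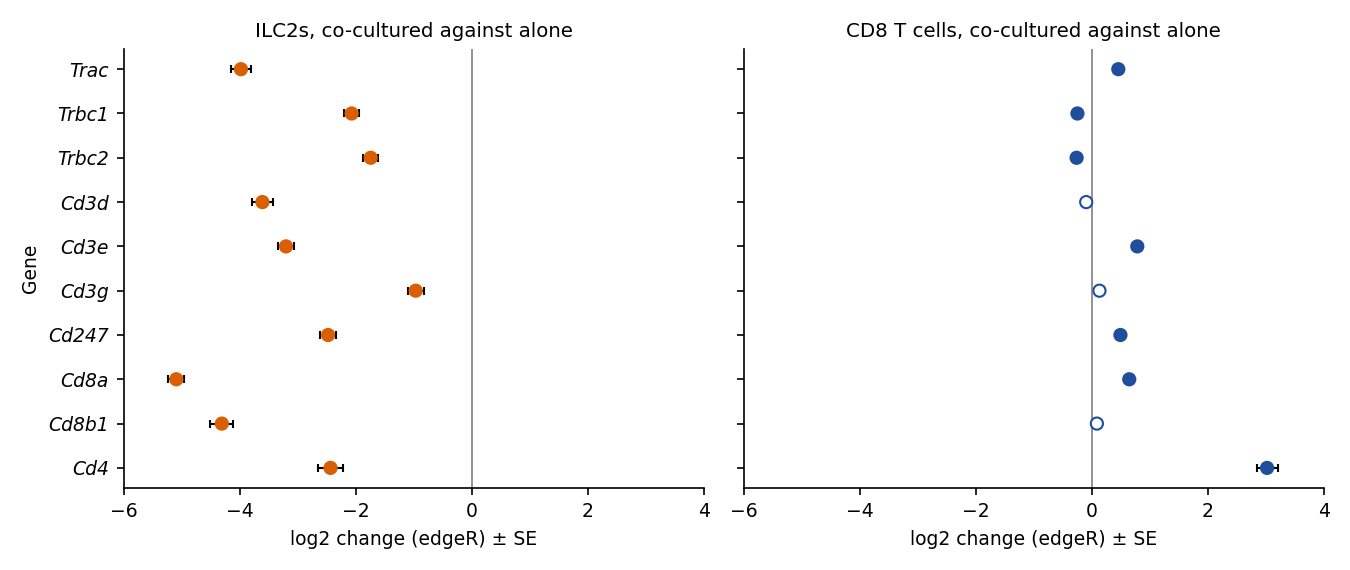
Log2 change of each gene, co-cultured against alone, in ILC2s (left) and CD8 T cells (right), with SE from the edgeR fit. Filled points passed the adjusted p threshold of 0.05. All 10 points lie below 0 in ILC2s, while in CD8 T cells 5 lie above 0 and passed, 2 lie below 0 and passed and 3 open points did not pass.

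In CD8 T cells the differences were smaller and went both ways. Cd3e, Cd247, Cd8a, Trac and Cd4 rose in co-cultured cells, Trbc1 and Trbc2 fell, and Cd3d, Cd3g and Cd8b1 did not pass. These 7 calls among 10 genes stand against 60.9% of the 15948 genes tested in CD8 T cells, 30.2% called higher and 30.7% lower. The median log2 change of the 10 genes was 0.30, against -0.01 over all genes tested.

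Cd3e had 1117 and 1162 CPM in co-cultured CD8 T cells, against 591 and 659.8 CPM in CD8 T cells alone (log2 change 0.79, SE 0.0767, edgeR's adjusted p = 1.8e-06). Cd3g had 678 and 666 CPM in co-cultured cells, against 569.5 and 589 CPM in cells alone, and Cd3d had 344 and 327 CPM, against 338 and 340.5 CPM. The groups were apart for Cd3e and Cd3g and overlapped for Cd3d. The log2 changes of Cd3g and Cd3d were 0.13 (SE 0.0674, edgeR's adjusted p = 0.105) and -0.10 (SE 0.0678, edgeR's adjusted p = 0.24). Cd247 had 361 and 325 CPM in co-cultured CD8 T cells, against 236 and 225 CPM in CD8 T cells alone (log2 change 0.49, SE 0.0729, edgeR's adjusted p = 6.6e-05).

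Of the coreceptor chains, Cd8a had 966 and 937 CPM in co-cultured CD8 T cells, against 580.0 and 570.1 CPM in CD8 T cells alone (log2 change 0.65, SE 0.0665, edgeR's adjusted p = 2.8e-06). Cd8b1 had 697 and 715 CPM in co-cultured cells, against 639.5 and 616.5 CPM in cells alone, with a log2 change of 0.09 (SE 0.0668, edgeR's adjusted p = 0.268). Cd8a was thus apart by much more than its replicates were, and Cd8b1 by an amount that the test did not call. With library totals in place of TMM scaling, which adjusts totals for differences in composition, Cd3g and Cd8b1 were also called higher, Cd3g at a log2 change of 0.21 (adjusted p = 0.013, edgeR) and Cd8b1 at 0.17 (adjusted p = 0.04, edgeR).

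The alpha and beta constant regions moved in opposite directions in CD8 T cells. Trac had 1159.5 and 1218 CPM in co-cultured cells, against 789 and 848 CPM in cells alone (log2 change 0.46, SE 0.0722, edgeR's adjusted p = 1.2e-04). Trbc1 had 525 and 518 CPM in co-cultured cells, against 594 and 576 CPM in cells alone, and Trbc2 had 594 and 574 CPM, against 672 and 652 CPM. The groups did not overlap for these genes. The log2 changes of Trbc1 and Trbc2 were -0.25 (SE 0.0662, edgeR's adjusted p = 0.0058) and -0.26 (SE 0.0666, edgeR's adjusted p = 0.0042). Without CD8 co-cultured replicate 2 both calls ended (log2 change -0.23 for each, edgeR's adjusted p = 0.067 for each).

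Cd4 was scarce in CD8 T cells but rose. It had 9.76 and 9.35 CPM (646 and 627 reads) in co-cultured CD8 T cells, against 1.01 and 1.21 CPM (53 and 69 reads) in CD8 T cells alone (log2 change 3.02, SE 0.181, edgeR's adjusted p = 3.4e-08). The level in co-cultured cells was 8.63 times that in cells alone. Of the 7 genes listed for CD4 and regulatory T cells 3 rose and 2 fell, where 30.2% of all genes rose and 30.7% fell, with Icos and Ctla4 among the first and Il2ra and Cd40lg among the last. Foxp3 had 0.20 and 0.22 CPM in co-cultured cells, against 0.13 and 0.32 CPM in cells alone, and Cd40lg had 0.80 and 0.51 CPM, against 1.39 and 1.23 CPM (log2 change -1.08, SE 0.315, edgeR's adjusted p = 0.0099). Zbtb7b, the gene of the factor ThPOK that directs thymocytes to the CD4 lineage, had 4.34 and 5.25 CPM in co-cultured cells, against 2.73 and 3.96 CPM in cells alone (log2 change 0.43, SE 0.206, edgeR's adjusted p = 0.086).

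The response of ILC2s was tested against that of CD8 T cells in a single fit of 15532 genes found in both tables. For all 10 genes the ILC2 response was the lower (edgeR adjusted p under 0.05), where 32.6% of genes were called lower, 21.0% higher and 53.6% in either direction, and the median over all genes was -0.12. The difference of log2 changes was largest for Cd8a at -5.90 (SE 0.137, edgeR's adjusted p = 2.5e-14) and for Cd4 at -5.61 (SE 0.28, edgeR's adjusted p = 1.3e-10). It was smallest for Cd3g at -1.26 (SE 0.149, edgeR's adjusted p = 3.3e-06).

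Set against CD8 T cells under the same culture, ILC2s held from 0.675% to 11.5% of the CD8 level of 9 genes when both had been co-cultured, leaving out Cd4. When both were kept alone, the shares of these 9 genes ran between 19.6% and 50.5%. The tables were deposited separately, and cell type, tissue and table cannot be told apart. In co-cultured ILC2s, Cd8a stood at 0.64% and 0.71% of the mean CD8 level, Cd8b1 at 0.596% and 1.00%, Trac at 0.977% and 1.48%, Cd3d at 1.09% and 1.72% and Cd3e at 1.42% and 1.78%. These 5 genes lay close together and partly overlapped. Cd247 stood apart from them at 5.10% and 5.42%, Trbc1 at 7.64% and 8.48%, Trbc2 at 9.38% and 10.54% and Cd3g at 10.6% and 12.4%, with no overlap between them, though Trbc2 and Cd3g nearly met. Cd4 stood at 26.3% and 20.9%.

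With both cell types kept alone, the order was another. Cd3d stood at 20.02% and 19.1% of the mean CD8 level and Cd8b1 at 21.1% and 19.96%. Cd3g, Cd3e, Trac, Trbc2 and Trbc1 overlapped one another between 26.7% and 37.7%. Cd8a stood at 43.4% and 44.9% and Cd247 at 54.3% and 46.8%, both above the others. Cd4 stood at 1424% and 1137%. The highest of the 9 shares was 17.1 times the lowest in co-cultured cells and 2.58 times the lowest in cells kept alone.

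**Figure D3:**
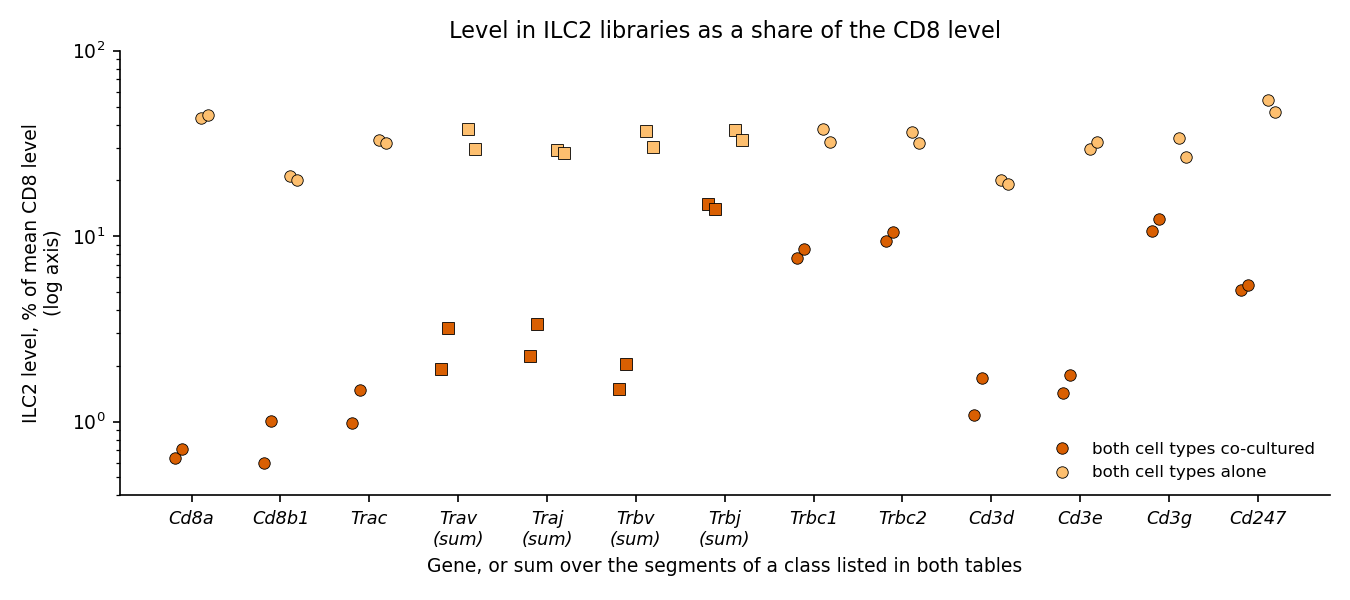
Level in each ILC2 library as a percentage of the mean level in CD8 libraries under the same culture, on a log axis. Circles are genes and squares are sums over variable or joining segments listed in both tables, with replicate 1 left of replicate 2, and Cd4 is left out. In co-cultured cells Cd8a, Cd8b1, Trac, Cd3d and Cd3e lie lowest, with the Trbv sum overlapping Cd3d and Cd3e. The Trbj sum, Trbc1, Trbc2 and Cd3g lie highest.

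Tested in the fit of both tables, all 10 genes were lower in co-cultured ILC2s than in co-cultured CD8 T cells, where 36.5% of genes were called lower, 32.9% higher and 69.4% in either direction. In cells kept alone, 9 genes were lower in ILC2s, where 30.4% of genes were called lower, and Cd4 was higher, where 32.8% were called higher and 63.2% in either direction. Cd8a had the largest difference in co-cultured cells (log2 -7.05, SE 0.116, edgeR's adjusted p = 3.2e-16) and Cd3g the smallest of the 9 genes other than Cd4 (log2 -2.95, SE 0.113, edgeR's adjusted p = 1.5e-12). Cd4 was lower in co-cultured ILC2s than in co-cultured CD8 T cells by a log2 difference of -1.91 (SE 0.19, edgeR's adjusted p = 1.7e-07), and higher in ILC2s alone than in CD8 T cells alone by 3.70 (SE 0.206, edgeR's adjusted p = 1.8e-10).

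Ratios of reads between genes of the same library do not depend on scaling and are compared here between libraries only, with no correction for length. With 2 libraries a group no exact test can pass, so they are given as a description. There were 4.41 and 4.12 Cd3g reads for each Cd3e read in co-cultured ILC2s, against 1.05 and 0.766 in ILC2s alone, and 0.607 and 0.573 in co-cultured CD8 T cells, against 0.965 and 0.893 in CD8 T cells alone. Co-cultured ILC2s stood apart from the other groups, which lay between 0.573 and 1.05. The ratio of Cd247 to Cd3e was 1.08 and 0.916 in co-cultured ILC2s, against 0.675 and 0.533 in ILC2s alone, and 0.323 and 0.280 in co-cultured CD8 T cells, against 0.399 and 0.341 in CD8 T cells alone. The ratio of Cd8a to Cd3e went the other way, at 0.377 and 0.333 in co-cultured ILC2s, against 1.35 and 1.28 in ILC2s alone, and 0.865 and 0.806 in co-cultured CD8 T cells, against 0.982 and 0.864 in CD8 T cells alone.

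The ratio of Trac to Cd3e was lower in both co-cultured groups than in the cells alone. It was 0.719 and 0.870 in co-cultured ILC2s, against 1.46 and 1.29 in ILC2s alone, and 1.04 and 1.05 in co-cultured CD8 T cells, against 1.34 and 1.29 in CD8 T cells alone. The ratio of Cd3d to Cd3e was 0.226 and 0.285 in co-cultured ILC2s, against 0.367 and 0.321 in ILC2s alone, and 0.308 and 0.281 in co-cultured CD8 T cells, against 0.572 and 0.516 in CD8 T cells alone. ILC2s alone and CD8 T cells alone thus overlapped in Trac to Cd3e but not in Cd3d to Cd3e. For the CD8 dimer, the ratio of Cd8b1 to Cd8a was 0.692 and 1.05 in co-cultured ILC2s, against 0.531 and 0.486 in ILC2s alone, and 0.721 and 0.763 in co-cultured CD8 T cells, against 1.10 and 1.08 in CD8 T cells alone.

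Beta constant reads per alpha constant read were compared after the values were seen. The ratio of Trbc1 to Trac was 3.43 and 2.51 in co-cultured ILC2s, against 0.816 and 0.720 in ILC2s alone, and 0.453 and 0.425 in co-cultured CD8 T cells, against 0.753 and 0.680 in CD8 T cells alone. Trbc1 to Trbc2 was lower in co-cultured ILC2s than in all 6 other libraries, at 0.728 and 0.719 in co-cultured ILC2s, against 0.916 and 0.900 in ILC2s alone, with 0.885 and 0.903 in co-cultured CD8 T cells and 0.885 in both CD8 libraries alone. Cd4 reads per Cd8a read were 0.414 and 0.295 in co-cultured ILC2s, against 0.0632 and 0.0488 in ILC2s alone, and 0.0101 and 0.00998 in co-cultured CD8 T cells, against 0.00174 and 0.00212 in CD8 T cells alone. The ratio of Cd4 to Cd3e was 0.156 and 0.0985 in co-cultured ILC2s, against 0.0852 and 0.0623 in ILC2s alone, and 0.00874 and 0.00804 in co-cultured CD8 T cells, against 0.00170 and 0.00183 in CD8 T cells alone.

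**Figure D4:**
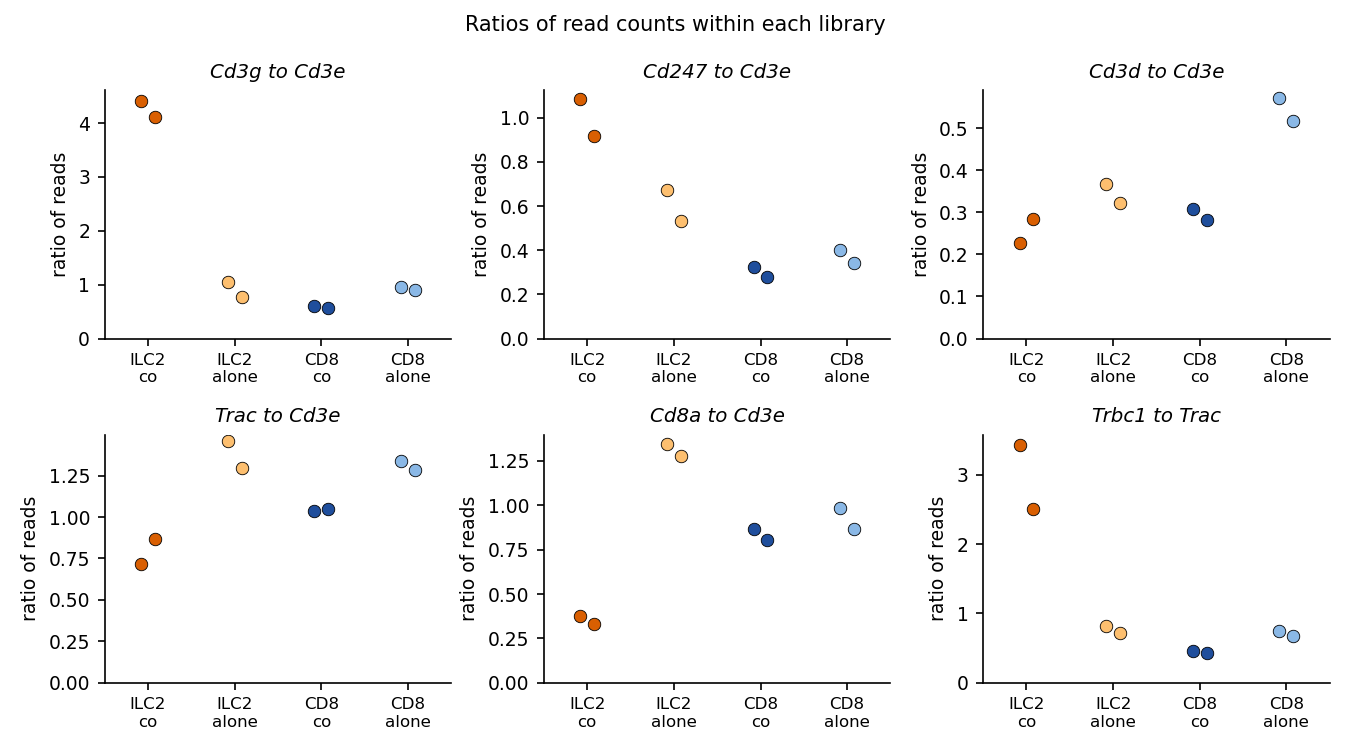
Ratio of read counts of 2 genes within each library, with replicate 1 left of replicate 2 and each axis starting at 0. Cd3g to Cd3e and Trbc1 to Trac are highest in the co-cultured ILC2 libraries, at 4.41 and 4.12 and at 3.43 and 2.51, while Cd8a to Cd3e is lowest there.

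Per kilobase of exon in the GENCODE M21 basic annotation, Trac was the most abundant of the genes in CD8 T cells, at 2878 ± 100.1 CPM per kilobase in co-cultured cells and 1982 ± 100.5 in cells alone (SD, n = 2). Below it in co-cultured CD8 T cells came Trbc1 (1019 ± 10.7), Trbc2 (843 ± 20.5), Cd3e (779 ± 22.04), Cd3g (657 ± 8.12), Cd8b1 (476 ± 8.39), Cd8a (304 ± 6.68), Cd3d (208 ± 7.61), Cd247 (75.2 ± 5.504) and Cd4 (3.07 ± 0.0944). Neighbours in this order were further apart than their SDs. These SDs leave out any error in the lengths, which ran from 413 bases for Trac to 4558 for Cd247. The annotation used for counting is not known. Trbc1 and Trbc2 had lengths of 512 and 692 bases. Trac, Trbc1 and Trbc2 thus had the shortest lengths of the 10 genes, and their places in the order depend on this. Whether these lengths cover their whole transcripts is not known. In mean CPM without length, Trac had 1189 ± 41.3 and Cd3e 1139 ± 32.2 in co-cultured CD8 T cells. The order of Trbc1 and Trbc2 was reversed without length, at 522 for Trbc1 and 584 for Trbc2. In co-cultured ILC2s the order was led by Trbc2 (84.0 ± 6.93), Trbc1 (82.1 ± 6.09) and Cd3g (75.7 ± 8.49), which did not differ beyond their spread. Trac followed at 35.4 ± 10.3 CPM per kilobase and Cd3e at 12.5 ± 1.997.

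The variable and joining segments, which are joined by recombination to make a complete chain, differed in the same libraries. The CD8 table listed 109 Trav, 54 Traj, 23 Trbv and 14 Trbj segments, and the ILC2 table listed 11, 15, 10 and 14 of these classes. No value in either table is 0, so a segment with 0 reads in any of a table's libraries is not listed there. Over the 10 Trbv segments in both tables, reads summed to 1.898 and 2.58 CPM (92 and 124 reads) in co-cultured ILC2s, against 47.8 and 39.3 CPM in ILC2s alone. The same segments summed to 127 and 126 CPM in co-cultured CD8 T cells, against 131 and 129 CPM in CD8 T cells alone. Segments with few reads in co-cultured ILC2s passed the filter on low counts through the libraries alone, so no count of calls is given.

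The 11 Trav segments in both tables summed to 0.640 and 1.06 CPM in co-cultured ILC2s, against 8.23 and 6.50 CPM in ILC2s alone, and to 32.4 and 34.2 CPM in co-cultured CD8 T cells, against 21.7 and 22.1 CPM in CD8 T cells alone. The filter applied to them in ILC2s in the same way. Among CD8 T cells, 17 of the 107 Trav segments tested and 12 of 44 Traj segments rose, and none fell, where 30.2% of all genes rose and 30.7% fell. The share that rose was no larger among these segments than among all genes. Their median log2 changes were 0.35 and 0.66. The median log2 change of 22 Trbv segments tested in CD8 T cells was -0.12, with 1 higher and 4 lower.

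The 14 Trbj segments lie just before Trbc1 and Trbc2. As a sum they kept more of their level in ILC2s than the variable segments did, though the difference between the classes was not tested. Single Trbj segments differed widely, with log2 changes in ILC2s from -0.40 (SE 0.301) for Trbj1-1 to -2.26 (SE 0.345) for Trbj2-7. The 14 segments summed to 7.34 and 6.86 CPM (356 and 330 reads) in co-cultured ILC2s, against 19.7 and 17.4 CPM in ILC2s alone. Co-cultured ILC2s held 15.0% and 14.0% of the co-cultured CD8 level of the Trbj sum, but 1.503% and 2.04% of the Trbv sum and 1.92% and 3.19% of the Trav sum. In cells kept alone the shares were 37.2% and 32.9% for Trbj, 36.8% and 30.2% for Trbv and 37.6% and 29.7% for Trav, which overlapped.

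Constant regions of the gamma delta receptor, the other form of the T cell receptor, were present at low levels. Trdc, of the delta chain, had 5.28 and 5.10 CPM in co-cultured ILC2s, against 48.1 and 51.8 CPM in ILC2s alone (log2 change -3.05, SE 0.148, edgeR's adjusted p = 1.1e-08). Trdc had in CD8 T cells 6.63 and 6.74 CPM in co-cultured cells, against 13.1 and 12.9 CPM in cells alone (log2 change -1.03, SE 0.126, edgeR's adjusted p = 1.3e-05). Tcrg-C1 and Tcrg-C2, of gamma chains, fell in both cell types, by log2 changes of -2.09 and -3.86 in ILC2s and -2.33 and -1.82 in CD8 T cells. Tcrg-C4 went apart from them in ILC2s, with 28.8 and 27.4 CPM in co-cultured cells and 32.6 and 30.3 CPM in cells alone (log2 change 0.05, SE 0.131, edgeR's adjusted p = 0.74). Tcrg-C4 of CD8 T cells fell by 2.36 on the log2 scale (SE 0.19, edgeR's adjusted p = 3.3e-07). Of the 5 genes listed for gamma delta T cells in the ILC2 table, a total of 3 were called lower and none higher. Of all genes tested in ILC2s, 34.4% were called lower and 31.8% higher. These 5 genes summed to 39.2 and 40.2 CPM in co-cultured ILC2s, against 109.6 and 111 CPM in ILC2s alone, led by Tcrg-C4. Tcrg-C3 and Ptcra, the gene of the pre-T alpha chain, were listed in neither table.

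Downstream of the receptor, 41 genes listed for its proximal signalling were all measured in both cell types. There were 16 that rose in ILC2s and 14 that fell, where 31.8% of all genes rose and 34.4% fell, a share near that of all genes for those that fell, and their median log2 change was -0.01. There were 23 that rose in CD8 T cells and 9 that fell, where 30.2% of all genes rose and 30.7% fell, and the median there was 0.31, against -0.01 over all genes in each. Lck, the kinase that phosphorylates the CD3 tails and is carried by CD8 and CD4, fell in ILC2s with the coreceptors, to 27.7 and 31.9 CPM in co-cultured cells, against 308 and 307 CPM in cells alone (log2 change -3.15, SE 0.126, edgeR's adjusted p = 2.2e-09). Zap70, the kinase that binds the phosphorylated tails, rose in ILC2s to 159.8 and 197 CPM in co-cultured cells, against 63.2 and 54.1 CPM in cells alone (log2 change 1.82, SE 0.135, edgeR's adjusted p = 3.5e-07).

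The surface receptors Cd28, Cd5 and Cd6, which tune T cell activation, fell with Lck in ILC2s by 3.58 (SE 0.147), 3.27 (SE 0.174) and 2.75 (SE 0.149) on the log2 scale. The adaptor genes Pag1, Sit1 and Grap2 rose there by 1.63 (SE 0.14), 1.46 (SE 0.182) and 1.41 (SE 0.168). Among CD8 T cells the largest rises of these 41 genes were those of Txk (2.59, SE 0.105), a kinase of the Tec family, Plcg1 (1.33, SE 0.086), the phospholipase, Ubash3b (1.27, SE 0.108), a phosphatase that restrains the receptor, and Malt1 (1.08, SE 0.0825), a protease on the path to NF-kB. The largest falls were those of Syk (-3.89, SE 0.448), a kinase related to Zap70 that had at most 2.11 CPM in any CD8 library, Trat1 (-2.44, SE 0.175), Sh2d1a (-1.48, SE 0.129) and Lat (-0.80, SE 0.0724), the adaptor that Zap70 phosphorylates.

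**Figure D5:**
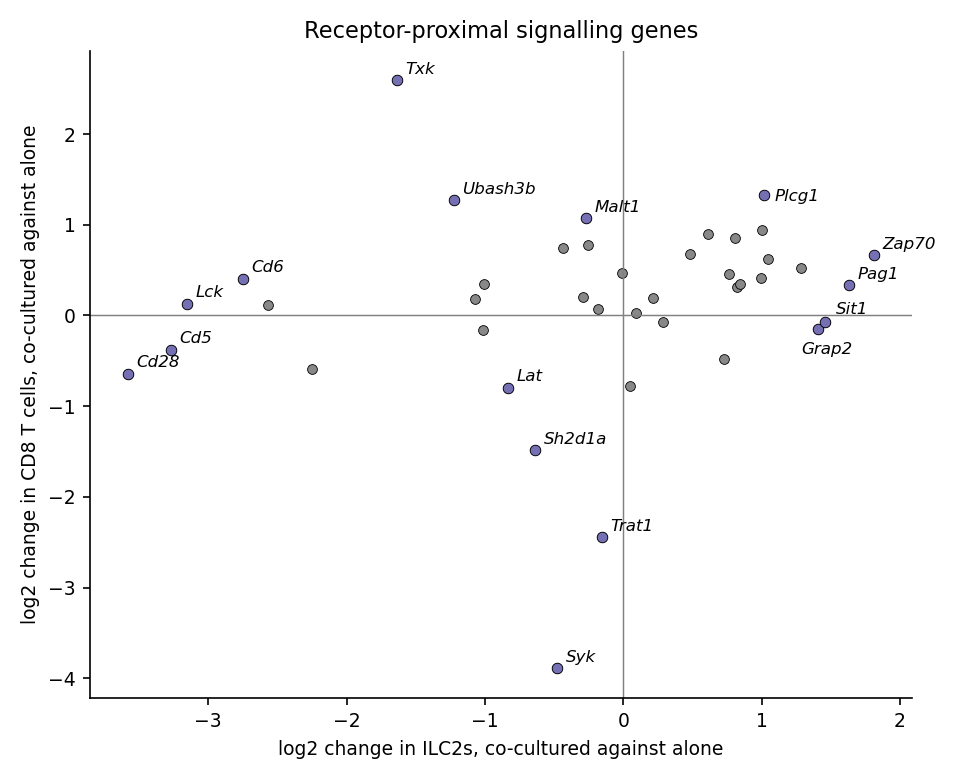
Log2 change of each of 41 genes of receptor-proximal signalling in ILC2s (horizontal) and in CD8 T cells (vertical), co-cultured against alone, from the edgeR fits. Labelled genes are those with the largest changes past the threshold in either cell type. Lck, Cd28, Cd5 and Cd6 lie far left, between -0.64 and 0.41 on the vertical axis, and Zap70 lies at the right.

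Genes with a pattern most like that of a receptor gene were sought by Pearson's r of log2(CPM + 0.5) over the 8 libraries, among 7682 other genes (7683 for Cd4) with a mean of at least 4 on that scale. As the libraries fall into 4 groups, r mostly reflects how the group levels are spaced relative to each other. Nearest to Cd3e were Rras2, Gpr18, Gimap4, Il12rb2 and Ms4a4a (r from 0.9982 to 0.9993). Nearest to Cd8a were Tbx21, Klrd1, Gramd3, Tedc1 and Klrk1 (r from 0.9967 to 0.9993). Tbx21, the gene of the factor T-bet, had 6.75 and 7.49 CPM in co-cultured ILC2s, against 88.0 and 98.7 CPM in ILC2s alone, and 245 and 226 CPM in co-cultured CD8 T cells, against 153 and 179 CPM in CD8 T cells alone. Nearest to Cd4, whose level was highest in ILC2s alone, were Lrrk1, Vwa5a, Trim34a, Ripk1 and Arfgap1 (r from 0.9867 to 0.9937).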

How the data were processed

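Libraries were prepared from Trizol-extracted RNA with the low-input SMART-Seq v4 kit, as the labels' protocols state. The authors deposited whole-number read counts per gene symbol, in a table for each cell type. Per the submitters' processing notes, Trimmomatic 0.38, HISAT2 2.1.0, SAMtools 1.9 and StringTie 2.1.3b were used with build mm10. No source used here gives their roles, the annotation, the strand setting or any filter, so reads of overlapping genes on opposite strands cannot be separated. The lowest deposited count was 1, so a gene with 0 reads in any library of a table is not listed there.

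The counts of each table were tested by edgeR 4.0.16 (R 4.3.3) after filterByExpr and TMM scaling, by its quasi-likelihood test. A call needed a Benjamini-Hochberg adjusted p under 0.05 over all genes tested. Differences between the tables came from a fit of all 8 libraries over genes in both. SE is the size of the log2 change divided by the square root of F. The fits left 2 residual degrees of freedom within a cell type and 4 over all libraries, so p-values rest largely on the spread of other genes. Alternatives were DESeq2 1.42.0, limma-voom (limma 3.58.1), other scalings, no filter, a replicate block and left-out libraries. The fits were also run on simulated data in which far fewer genes changed than were called here. Those runs thus did not test the scaling under changes as widespread as these. A gene of the signalling list is not reported here and was left out of that list's counts. The genes and lists were chosen with earlier results of these data known. Named were all 10 genes and, for the signalling and factor lists, the genes past the threshold with the largest changes. For the lists of cell types the most abundant gene over the ILC2 libraries was named. A few others were named for their role. Sums, ratios and figures used Python 3.11.15, pandas 2.3.3 and matplotlib 3.10.9.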

Additional observations from a re-analysis of the deposited data

Results flagged for a closer look

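For each of the 10 genes the response to co-culture differed between ILC2s and CD8 T cells by an interaction test (edgeR, adjusted p under 0.05, background 53.6%). The difference, ILC2 log2 change minus CD8 log2 change, was -5.90 for Cd8a, -5.61 for Cd4, -4.59 for Trac, -4.55 for Cd8b1, -4.14 for Cd3e, -3.67 for Cd3d, -3.13 for Cd247, -1.98 for Trbc1, -1.64 for Trbc2 and -1.26 for Cd3g. Groups of 2 libraries are too small to look for outlying libraries.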

How the results depend on the processing

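Of 710 refitted log2 changes of the 10 genes, 705 kept their direction and their side of the threshold, 3 passed only in the alternative and 2 no longer passed. The 5 were all in CD8 T cells: Cd3g and Cd8b1 with library totals only, Cd3g without CD8 alone replicate 2 (log2 change 0.17, edgeR adjusted p = 0.041), and Trbc1 and Trbc2 without CD8 co-cultured replicate 2. The number of genes called lower in CD8 T cells thus ranged from 0 to 2 over the left-out libraries. Scaling to the ILC2 markers shifted the median log2 change of all genes in ILC2s to -1.52, and all 10 genes were still called lower, with Cd3g at -2.47. Library totals alone shifted that median to -0.22. Scaling to ribosomal protein genes shifted the median difference between the responses to -0.96, with all 10 genes still lower. Same-numbered libraries of the groups share only a number: the correlation of their deviations was 0.0421 in ILC2s and -0.0268 in CD8 T cells, and the replicate block changed no call of these genes. With it 11056 genes were called in ILC2s and 9732 in CD8 T cells, against 11090 and 9711 without it. The median share of the CD8 level over the 10 genes in co-cultured ILC2s was 3.43%, and 3.83% with TMM-scaled totals, a choice made after the data were seen. Depth limits Cd4 in CD8 T cells alone (53 and 69 reads) and the Trbv sum in co-cultured ILC2s (92 and 124 reads).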

Other observations

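Factors that direct the T cell lineage and the choice between CD4 and CD8 changed in both cell types. Of 22 such genes, some of which are also ILC2 markers, 14 rose and 6 fell in ILC2s, where 31.8% of all genes rose and 34.4% fell, and 14 rose and 4 fell in CD8 T cells, where 30.2% of all genes rose and 30.7% fell. Runx3, the factor that maintains Cd8a transcription in CD8 T cells, had 318 and 314 CPM in co-cultured ILC2s, against 88.0 and 80.6 CPM in ILC2s alone (log2 change 2.12, SE 0.121, edgeR adjusted p = 4.1e-08), while Cd8a fell there. Ets1 and Id2 rose in ILC2s by log2 changes of 2.00 (SE 0.125) and 1.88 (SE 0.111). Id3, Tcf7 and Satb1 fell there by 6.16 (SE 0.189), 2.05 (SE 0.153) and 1.18 (SE 0.134) on the log2 scale. In CD8 T cells Tcf7, Myb and Runx1 rose by log2 changes of 1.05, 0.97 and 0.95, and Id3, Gata3 and Id2 fell by 1.13, 0.60 and 0.50 on the log2 scale.

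A delta variable segment, Trdv4, was singled out after its values were seen. It had 23.2 and 24.3 CPM in co-cultured ILC2s, against 5.98 and 5.05 CPM in ILC2s alone (log2 change 2.32, SE 0.155, edgeR adjusted p = 1.5e-07), and at most 0.209 CPM in any CD8 library. It rose in the libraries in which Trdc fell.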
